A study of Mus musculus with 16 samples.

Results

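The 50 genes described here are interferon-stimulated genes of the mouse, followed by messenger RNA sequencing through the ventricles of neonatal mice with and without the nicotinic acetylcholine receptor subunit gene Chrna7. They were chosen by symbol. Each symbol matched 1 Ensembl gene of the count table, so 50 of 22468 genes are members. Of these, 47 were among the 13412 genes that passed the filter on low counts, while Ifi205, Oas3 and Mx1 did not pass and were not tested. The 4 groups held 4 libraries each. KO MI denotes Chrna7 KO mice after myocardial infarction (MI), produced by ligation, and WT MI denotes wild-type mice after the same surgery. KO sham and WT sham denote Chrna7 KO and wild-type mice after sham surgery. The knockout is a Jackson Laboratory line in which the deletion is present in all cells, not in leukocytes or neurons alone. RNA came from the full ventricle and included tissue from both sides of the ligature. The labels give neither litter, sex, age in days nor time from surgery to harvest, and nothing states that the libraries of a group came from separate animals, so the p-values measure only the spread between these libraries.

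Interferons are secreted proteins that alert cells to viral or other foreign nucleic acid. Type I interferons act through the receptor of Ifnar1 and Ifnar2, the kinases Jak1 and Tyk2, and a complex with Stat2 and Irf9 that binds the interferon-stimulated response element (ISRE) of its target genes. Interferon gamma acts through Ifngr1 and Ifngr2 and the gamma-activated site (GAS) of its target genes, and it is the main inducer of the immunity-related GTPases and of the immunoproteasome. In the injured adult heart, resident and recruited macrophages are known to express many of these genes, and dying cardiomyocytes can release nucleic acid that triggers them.

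The promoters of called members that hold the core letters of an ISRE are printed first, because those letters are what the family is known to share, together with the promoter of Cmpk2, a called member without them. A called gene is, throughout, 1 with an adjusted p under 0.05 from edgeR's quasi-likelihood test, with Benjamini-Hochberg adjustment over all genes tested. The sequences are the 250 bases before an annotated start of the gene, 5′ to 3′ on the strand of the gene, from RefSeq's annotation of GRCm38.p6. This build is older than GRCm39, on which the reads were counted. Capitals mark each match to the ISRE core, which is GAAA, then any 2 bases, then GAAA. A match on the opposite strand is marked in its reverse complement.
Ifi203 (chr1:173942493-173942742, minus strand): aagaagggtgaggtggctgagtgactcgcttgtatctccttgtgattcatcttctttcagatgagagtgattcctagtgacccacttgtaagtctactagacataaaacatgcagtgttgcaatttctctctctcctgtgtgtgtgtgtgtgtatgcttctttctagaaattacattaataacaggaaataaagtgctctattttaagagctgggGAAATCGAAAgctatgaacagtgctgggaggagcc
Gbp7 (chr3:142530086-142530335, plus strand): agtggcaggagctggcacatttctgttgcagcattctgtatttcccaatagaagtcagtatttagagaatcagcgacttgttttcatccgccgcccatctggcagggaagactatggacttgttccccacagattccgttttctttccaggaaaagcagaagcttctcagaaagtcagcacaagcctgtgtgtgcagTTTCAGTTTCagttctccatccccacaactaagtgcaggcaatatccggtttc
Stat2 (chr10:128270248-128270497, plus strand): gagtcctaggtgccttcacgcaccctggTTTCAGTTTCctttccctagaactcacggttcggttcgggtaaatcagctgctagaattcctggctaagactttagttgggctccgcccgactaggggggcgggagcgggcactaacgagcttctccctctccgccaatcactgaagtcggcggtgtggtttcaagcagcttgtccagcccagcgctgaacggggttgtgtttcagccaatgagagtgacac
Bst2 (chr8:71537473-71537722, minus strand): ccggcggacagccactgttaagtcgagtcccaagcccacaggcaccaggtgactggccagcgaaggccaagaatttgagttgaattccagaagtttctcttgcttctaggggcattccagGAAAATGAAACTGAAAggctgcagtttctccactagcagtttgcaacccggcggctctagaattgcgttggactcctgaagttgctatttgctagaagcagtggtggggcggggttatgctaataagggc
Rsad2 (chr12:26456453-26456702, minus strand): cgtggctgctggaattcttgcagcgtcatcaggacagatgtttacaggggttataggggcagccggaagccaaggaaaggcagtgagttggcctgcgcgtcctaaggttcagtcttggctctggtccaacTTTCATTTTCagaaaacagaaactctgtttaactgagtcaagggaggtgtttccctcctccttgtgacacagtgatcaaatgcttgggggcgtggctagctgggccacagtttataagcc
Cmpk2 (chr12:26468965-26469214, plus strand): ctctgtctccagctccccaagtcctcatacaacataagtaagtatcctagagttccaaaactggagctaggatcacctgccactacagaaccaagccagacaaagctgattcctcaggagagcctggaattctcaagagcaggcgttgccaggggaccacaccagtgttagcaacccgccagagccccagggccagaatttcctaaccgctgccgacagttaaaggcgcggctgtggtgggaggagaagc

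In these promoters the first match began at position -35 from the start in Ifi203, -53 in Gbp7, -222 in Stat2, -130 in Bst2 and -120 in Rsad2. Ifi203 had another annotated start whose window held no match, and its window with a match is the one printed. Bst2 held 2 matches that share bases. Rsad2 and Cmpk2 are neighbours on chromosome 12 that are transcribed away from each other, and only the Rsad2 window of the pair held the letters. A window of 300 bases (250 before and 50 after the start) was present for 38 members. Dhx58, Ifi204, Ifi27l2a, Iigp1, Mx1, Mx2, Oas2, Parp14, Parp9, Rtp4, Usp18 and Zbp1 had none in the table. The ISRE core, searched on both strands, was in a window of 20 of the 38 members (52.6%), against 3.99% of all 27025 genes with a window. The GAS letters TTCNNNGAA were in 10 members (26.3%), against 9.55% of all genes. By role, the ISRE core was found in 5 of 5 interferon-inducible GTPases with a window, 3 of 3 Ifi200 family genes and 0 of 3 antigen processing genes. The letters were in 5 of the 11 members with a window that were called in at least 1 comparison, and in 15 of the 27 that were called in none. A match is a description of the letters in a window and does not show that a factor binds there.

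Library depth ranged from 13857909 to 14683416 gene counts in KO MI, from 10871418 to 17223580 in WT MI, from 12449879 to 15501352 in KO sham and from 10711442 to 13504923 in WT sham. A floor of 3 counts in a library corresponded to 0.179 to 0.290 CPM (counts scaled to a fixed library total), the unit of all levels below. Chrna7 itself had 0 to 4 reads in any library, with 11 in all over KO MI, 3 over WT MI, 3 over KO sham and 4 over WT sham, too few to check the genotype labels. The ventricle label was matched by cardiomyocyte markers, 8 genes that summed to 45674 to 71851 CPM in KO MI, 69454 to 74812 CPM in WT MI, 66705 to 69361 CPM in KO sham and 74318 to 84762 CPM in WT sham. Y-linked genes were near absent in KO MI replicate 1, KO sham replicate 2 and WT sham replicate 1 (1.73 to 2.74 CPM), and no other library was near that level.

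The members were mostly transcripts of low abundance. The mean level of the 47 tested members over the 16 libraries ran from 0.859 CPM for Zbp1 to 31.1 CPM for Bst2, with a median of 8.57 CPM, against a median of 20.1 CPM over all genes tested. Per kilobase of exon, Bst2 led with 34.4 CPM, followed by Ifi27l2a with 12.6, Ifi35 with 10.65, Isg15 with 6.43 and Parp9 with 5.84 CPM per kilobase. Bst2 encodes tetherin, which holds budding virus particles at the cell membrane. Libraries of the same group also differed more in these genes than in others. The SD of log2 CPM within groups had a median of 0.296 over members and 0.188 over all genes tested, a comparison that does not allow for the lower counts of the members. It was largest for Zbp1 at 0.726, Iigp1 at 0.704 and Oas2 at 0.658.

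**Figure D1:**
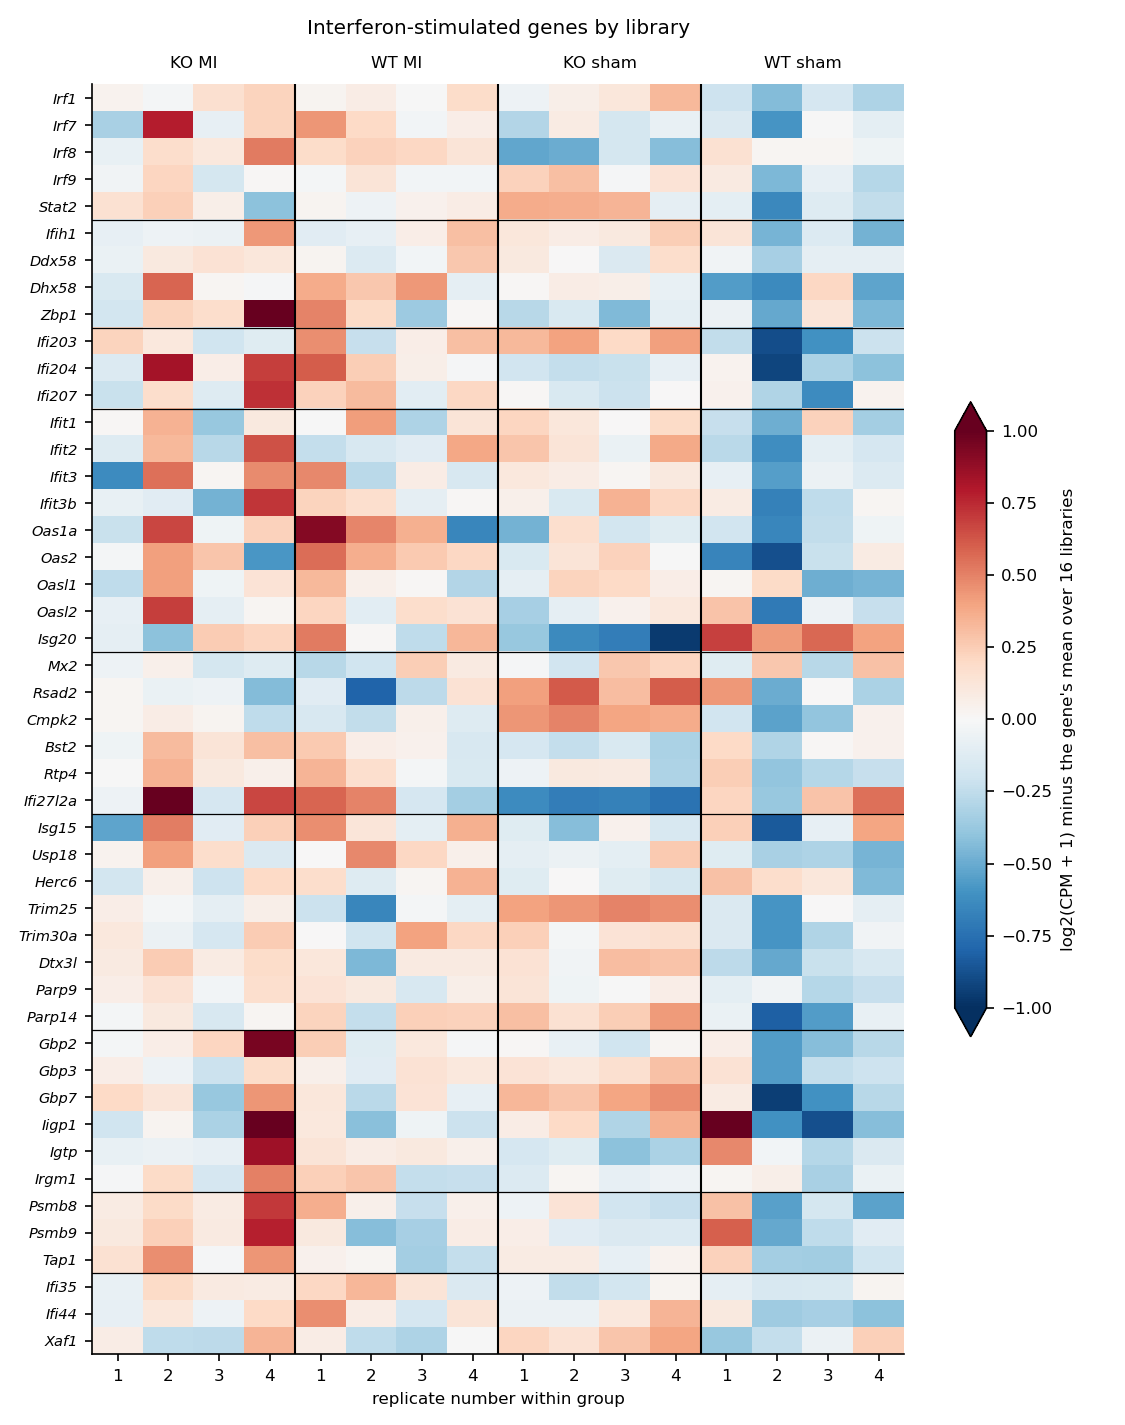
Level of the 47 tested members (rows, grouped by role with lines between roles) in 16 libraries (columns, grouped as KO MI, WT MI, KO sham and WT sham), as log2(CPM + 1) minus the mean of the gene over all libraries, so that red is above the mean of the gene and blue below it. WT sham replicate 2 is blue for most members, and KO MI replicate 4 is dark red for Zbp1, Gbp2, Iigp1 and Igtp.

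Particular libraries stood apart in these genes. WT sham replicate 2 was the lowest of all 16 libraries for 26 of the 47 tested members (55.3%), and was the lowest for 8.63% of all genes tested. KO MI replicate 4 was the highest for 13 members (27.7%, against 14.0% of all genes tested) and KO MI replicate 2 for 11 members (23.4%, against 4.38% of all genes tested). KO MI replicate 4 also had the lowest sum of cardiomyocyte markers (45674 CPM) and the highest sums of leukocyte markers (232 CPM) and neutrophil markers (116 CPM). Counts without WT sham replicate 2 are given beside the comparisons that use it. Those without KO MI replicate 2 or 4 are given beside the comparison of KO MI with KO sham.

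**Figure D2:**
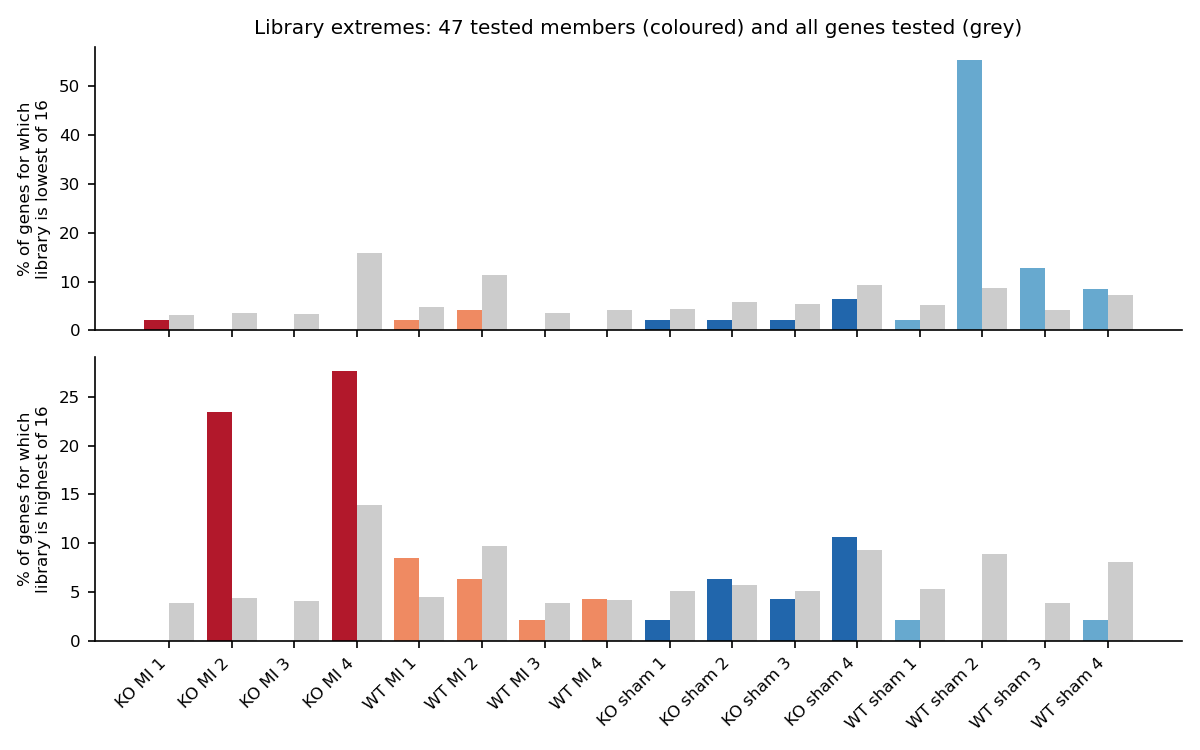
Share of genes, in percent, for which each library is the lowest (upper plot) or the highest (lower plot) of the 16, for the 47 tested members (coloured bars) and all genes tested (grey bars). The tallest coloured bars are WT sham replicate 2 in the upper plot (55.3%) and KO MI replicate 4 and KO MI replicate 2 in the lower plot (27.7 and 23.4%).

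The values by role follow, and the counts over the members are given after them. Differences are log2 fold changes with their standard error (SE), and the p-values are adjusted over all genes tested. Of the 50 members, 14 were called in at least 1 comparison, 33 were tested and called in none, and 3 were not tested. The comparisons that share KO sham or WT sham libraries are not independent of each other.

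**Figure D3:**
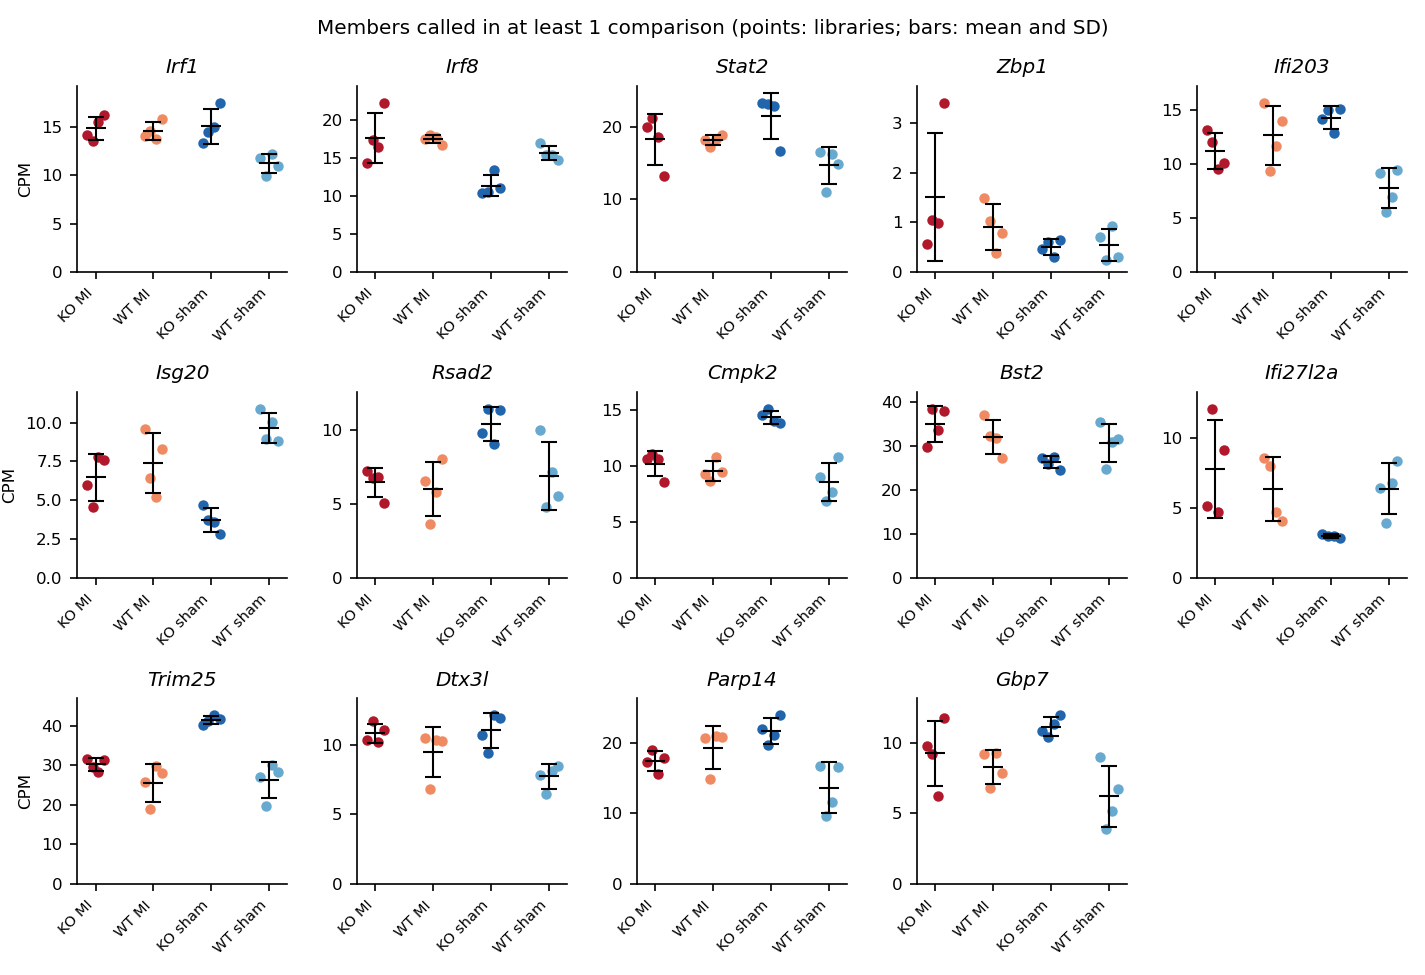
Level in CPM (linear axis from 0) of the 14 members called in at least 1 comparison, with 1 point per library, and bars for mean and SD, for KO MI, WT MI, KO sham and WT sham from left to right. KO sham lies apart from WT sham in 11 of the plots, above it for Irf1, Stat2, Ifi203, Cmpk2, Trim25, Dtx3l, Parp14 and Gbp7 and below it for Irf8, Isg20 and Ifi27l2a.

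Among the transcription factors, Irf1, Irf8 and Stat2 were called and Irf7 and Irf9 were not. Irf8 (ENSMUSG00000041515, chromosome 8) specifies monocytes, macrophages and dendritic cells. It stood at 14.4, 17.3, 16.5 and 22.3 CPM in KO MI, at 17.4, 18.03, 17.8 and 16.7 CPM in WT MI, at 10.3, 10.5, 13.4 and 11.1 CPM in KO sham and at 17.04, 15.4, 15.4 and 14.8 CPM in WT sham. The 4 KO sham libraries were the 4 lowest of the 16. Irf8 was 0.64 ± 0.12 higher in KO MI than in KO sham (adjusted p = 0.00237) and fell by 0.47 ± 0.13 in KO sham relative to WT sham (adjusted p = 0.0159). The second call was lost without KO sham replicate 1 or 2, with log2 fold changes of -0.43 and -0.44, and without the 3 libraries with almost no Y-linked reads (-0.39). Irf1 (ENSMUSG00000018899, chromosome 11), an activator induced by interferon gamma, had 13.3, 14.5, 15.02 and 17.6 CPM in KO sham and 11.8, 9.98, 12.2 and 11.02 CPM in WT sham. The groups did not overlap, and the difference was 0.42 ± 0.11 (adjusted p = 0.0152). It was not called without KO sham replicate 4 (0.34) or WT sham replicate 2 (0.36). Stat2 (ENSMUSG00000040033, chromosome 10), a subunit of the complex that binds the ISRE, had 23.4, 23.2, 22.9 and 16.8 CPM in KO sham and 16.6, 11.1, 16.3 and 14.9 CPM in WT sham. The lowest KO sham library was only just above the highest WT sham library. Stat2 was higher by 0.56 ± 0.15 in KO sham (adjusted p = 0.0158), and it was not called without KO sham replicate 1 (0.51), KO sham replicate 2 (0.52) or WT sham replicate 2 (0.43). Irf9, the DNA-binding subunit of the same complex, averaged 20.7 ± 2.04 CPM in KO sham and 16.2 ± 2.78 CPM in WT sham (SD, n = 4 each), and Irf7, the amplifier of type I interferon production, averaged 7.48 ± 0.95 and 7.0 ± 1.34 CPM in the same groups. The spans of Irf7 and Irf9 overlap those of Phrf1 and Rnf31. Irf7 reached 14.7 CPM in KO MI replicate 2 alone, against 6.30 to 11.4 CPM in the other infarcted hearts of either genotype.

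Among the sensors of nucleic acid only Zbp1 was called. Ddx58 (RIG-I) and Ifih1 (MDA5) detect viral RNA, Dhx58 modulates both, and Zbp1 detects left-handed nucleic acid and can start cell death. Ddx58 averaged 16.4 ± 1.13 CPM in KO MI, 15.97 ± 2.07 CPM in WT MI, 15.9 ± 1.61 CPM in KO sham and 14.1 ± 1.35 CPM in WT sham (SD, n = 4 each), and it was called in no comparison, nor were Ifih1 and Dhx58. All 4 sensors had positive estimates in WT MI relative to WT sham, with a median of 0.55 and none called. Dhx58 was 0.88 ± 0.29 there (adjusted p = 0.125), and was called only without WT sham replicate 3 (1.28). Zbp1 (ENSMUSG00000027514, chromosome 2) had 0.548, 1.05, 0.984 and 3.41 CPM in KO MI and 0.456, 0.588, 0.299 and 0.642 CPM in KO sham. A single library, KO MI replicate 4 with 49 reads, held more reads of Zbp1 than the other KO MI libraries together. Zbp1 was called higher in KO MI than in KO sham by 1.58 ± 0.53 (adjusted p = 0.0485), and by 0.79, not called, without KO MI replicate 4 (adjusted p = 0.247). Leaving out KO MI replicate 2 or 3 or any KO sham library also ended the call, with values of 1.41 to 1.74.

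The Ifi200 family encodes DNA-binding proteins, several of which lie side by side on mouse chromosome 1. Ifi203 (ENSMUSG00000039997) had 13.1, 12, 9.51 and 10.1 CPM in KO MI and 15.6, 9.31, 11.6 and 13.9 CPM in WT MI. It had 14.1, 15, 12.9 and 15.1 CPM in KO sham and 9.17, 5.53, 6.94 and 9.38 CPM in WT sham. Of the 4 groups WT sham was the lowest, and its libraries overlapped with WT MI by a narrow margin (9.38 against 9.31 CPM). Ifi203 was higher in KO sham than in WT sham by 0.88 ± 0.17 (adjusted p = 0.00214) and higher in WT MI than in WT sham by 0.70 ± 0.17 (adjusted p = 0.0371). The WT MI call was lost without WT MI replicate 1 (0.57) or 4 (0.65) and without WT sham replicate 2 (0.55) or 3 (0.65). Its span overlaps that of Mndal, a gene of the same family that was likewise higher in KO sham than in WT sham (0.80 ± 0.15, adjusted p = 0.00136). The strand setting of the counting is not given in the sources used here, so reads of either gene may have been counted to the other. Ifi204 averaged 3.70 ± 1.49 CPM in KO MI, 3.17 ± 0.85 CPM in WT MI, 2.10 ± 0.15 CPM in KO sham and 1.73 ± 0.71 CPM in WT sham (SD, n = 4 each), and neither it nor Ifi207 was called. Ifi205, not tested, reached at most 0.822 CPM in any library.

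The antiviral RNA-binding and synthetase genes hold the classic reporters of an interferon response, and only Isg20 among them was called. Ifit proteins bind viral RNA, and Oas proteins make the messenger that activates RNase L. Ifit3 had 1.64, 4.98, 3.15 and 4.66 CPM in KO MI, 4.69, 2.39, 3.295 and 2.66 CPM in WT MI, 3.38, 3.31, 3.14 and 3.37 CPM in KO sham and 2.85, 1.79, 2.92 and 2.71 CPM in WT sham. The 2 infarcted groups scattered widely, while KO sham lay within a narrow band just above WT sham, a difference of 0.37 ± 0.29 that was not called (adjusted p = 0.40). Oasl2 ranged from 7.35 to 13.3 CPM in KO MI, from 7.28 to 9.30 CPM in WT MI, from 6.05 to 8.58 CPM in KO sham and from 4.44 to 9.86 CPM in WT sham. Oas2 had the largest estimate of any member in WT MI relative to WT sham, 1.46 ± 0.45, and was not called (adjusted p = 0.104). Its levels were 2.14, 1.73, 1.56 and 1.46 CPM in WT MI and 0.346, 0.156, 0.822 and 1.26 CPM in WT sham. Ifit1, Ifit2, Ifit3b, Oas1a, Oasl1 and Oasl2 were likewise called in no comparison, and reads may be shared among the similar genes of the Ifit and Oas families. Oas3 averaged 0.478 CPM over all libraries and was not tested.

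Isg20 (ENSMUSG00000039236, chromosome 7) went the other way. It encodes an exonuclease that degrades RNA, and had 5.96, 4.56, 7.81 and 7.59 CPM in KO MI, 9.62, 6.45, 5.22 and 8.33 CPM in WT MI, 4.69, 3.75, 3.59 and 2.81 CPM in KO sham and 10.9, 8.96, 10.05 and 8.797 CPM in WT sham. By group mean KO sham was the lowest and WT sham the highest, with no overlap between them. It fell by 1.37 ± 0.20 in KO sham relative to WT sham (adjusted p = 0.000225), the smallest p of any member, and was higher by 0.80 ± 0.21 in KO MI than in KO sham (adjusted p = 0.0134), where the call was lost without KO sham replicate 4 (0.69) and when GC content and exon length were corrected for (0.59). Erythroid markers, 7 genes that include the haemoglobins, summed to 1124 to 1859 CPM in KO MI, 1711 to 2116 CPM in WT MI, 991 to 1407 CPM in KO sham and 2966 to 4731 CPM in WT sham, so that the order of the group means was the same for them as for Isg20. All 7 erythroid markers were lower in KO sham than in WT sham, and their part in the Isg20 difference was not tested. In bulk tissue, fewer cells of a type and less RNA per cell cannot be told apart. Isg20 lies on the same chromosome as Chrna7, as do the members Irf7 and Trim30a, which were not called.

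The membrane-associated and other antiviral effectors held calls in both directions. Rsad2 (viperin) produces a chain-terminating nucleotide from the product of Cmpk2, a mitochondrial nucleotide kinase, and both genes had their highest group means in KO sham. Cmpk2 (ENSMUSG00000020638, chromosome 12) had 10.5, 11.02, 10.6 and 8.56 CPM in KO MI, 9.21, 8.596, 10.8 and 9.44 CPM in WT MI, 14.5, 15.1, 13.98 and 13.8 CPM in KO sham and 8.99, 6.86, 7.67 and 10.7 CPM in WT sham. Every KO sham library was above every other library. Cmpk2 was higher by 0.75 ± 0.13 in KO sham than in WT sham (adjusted p = 0.000981) and fell by 0.49 ± 0.13 in KO MI relative to KO sham (adjusted p = 0.0137). Rsad2 (ENSMUSG00000020641, chromosome 12) had 7.19, 6.74, 6.82 and 5.01 CPM in KO MI, 9.76, 11.4, 9.04 and 11.3 CPM in KO sham and 9.94, 4.75, 7.13 and 5.51 CPM in WT sham. It fell by 0.69 ± 0.21 in KO MI relative to KO sham (adjusted p = 0.0335), with no overlap, whereas the difference of KO sham from WT sham was 0.60 ± 0.22 and not called (adjusted p = 0.0641). The call in KO MI was lost without KO MI replicate 2, 3 or 4 or KO sham replicate 1, 2 or 4, with values of -0.72 to -0.59.

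Ifi27l2a and Bst2 had the opposite pattern, with their lowest group means in KO sham. Ifi27l2a (ENSMUSG00000079017, chromosome 12), which encodes a small hydrophobic protein, had 5.14, 12.1, 4.66 and 9.12 CPM in KO MI, 8.56, 7.999, 4.67 and 4.03 CPM in WT MI, 3.12, 2.94, 2.99 and 2.81 CPM in KO sham and 6.399, 3.897, 6.76 and 8.31 CPM in WT sham. All 4 KO sham libraries were below the other 12. The gene was higher by 1.38 ± 0.31 in KO MI than in KO sham (adjusted p = 0.00636) and fell by 1.08 ± 0.32 in KO sham relative to WT sham (adjusted p = 0.0273). The call relative to WT sham ended without any of the KO sham libraries or WT sham replicate 3 or 4, with values of -1.11 to -0.93. It also ended without the 3 libraries with almost no Y-linked reads (-1.07) and when GC content and exon length were corrected for (-0.84). Bst2 (ENSMUSG00000046718, chromosome 8) had 29.8, 38.5, 33.7 and 38.1 CPM in KO MI and 27.3, 25.9, 27.6 and 24.5 CPM in KO sham. The groups did not overlap, with a difference of 0.41 ± 0.11 (adjusted p = 0.0178). Correcting for GC content and exon length reduced it to 0.11 (adjusted p = 0.501), and without KO MI replicate 2 (0.36) or KO sham replicate 2 (0.40) or 4 (0.38) it was not called. Bst2 also marks plasmacytoid dendritic cells. The other 5 markers of dendritic cells together summed to 0.685 to 1.31 CPM in KO MI and 1.03 to 1.497 CPM in KO sham, and Ccr9 and Xcr1 had at most 3 counts in any library. Rtp4, a chaperone of receptors at the membrane, and Mx2, a dynamin-like GTPase, were not called, and Mx1 averaged 0.583 CPM and was not tested.

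Of the ubiquitin-like and ubiquitin ligase genes, Trim25, Dtx3l and Parp14 were called. Trim25 (ENSMUSG00000000275, chromosome 11), the ligase that activates RIG-I and attaches Isg15, had 31.6, 29.7, 28.2 and 31.5 CPM in KO MI, 25.8, 18.8, 29.7 and 28.1 CPM in WT MI, 40.2, 41.2, 42.8 and 41.9 CPM in KO sham and 27.2, 19.6, 30.1 and 28.3 CPM in WT sham. The KO sham libraries lay above all 12 others. Trim25 was higher by 0.66 ± 0.13 in KO sham than in WT sham (adjusted p = 0.00195) and fell by 0.46 ± 0.12 in KO MI relative to KO sham (adjusted p = 0.0177), a call that was lost without KO MI replicate 2 (-0.45) or 3 (-0.43). Parp14 (ENSMUSG00000034422, chromosome 16), an ADP-ribosyltransferase, had 21.9, 19.7, 21.1 and 23.98 CPM in KO sham and 16.8, 9.59, 11.6 and 16.6 CPM in WT sham. It was higher by 0.67 ± 0.15 in KO sham (adjusted p = 0.00639), with no overlap. Dtx3l (ENSMUSG00000049502, chromosome 16), the ubiquitin ligase that pairs with Parp9, had 10.7, 9.41, 12.2 and 11.9 CPM in KO sham and 7.87, 6.47, 8.13 and 8.51 CPM in WT sham. It was higher by 0.52 ± 0.14 in KO sham (adjusted p = 0.0202), and was not called without KO sham replicate 3 (0.47) or 4 (0.48) or WT sham replicate 2 (0.43). Dtx3l and Parp9 share part of their span, and Parp9 averaged 29.1 ± 1.58 CPM in KO sham and 25.3 ± 2.11 CPM in WT sham (SD, n = 4 each), not called. Isg15, the ubiquitin-like modifier that gives the family its best-known reporter, had 2.95, 7.09, 4.26 and 5.71 CPM in KO MI, 6.83, 5.19, 4.302 and 6.27 CPM in WT MI, 4.23, 3.23, 4.86 and 4.09 CPM in KO sham and 5.71, 2.18, 4.39 and 6.48 CPM in WT sham. All 4 groups overlapped, and the estimate of KO sham against WT sham was -0.18 ± 0.29 (adjusted p = 0.708). Usp18, which removes Isg15 from proteins, and Herc6, the mouse ligase for Isg15, were not called, nor was Trim30a.

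The interferon-inducible GTPases, which attack the vacuoles of intracellular parasites and bacteria, held several members in which 1 library lay far above its group. Gbp7 (ENSMUSG00000040253, chromosome 3) had 9.796, 9.26, 6.23 and 11.8 CPM in KO MI, 9.21, 6.81, 9.34 and 7.896 CPM in WT MI, 10.9, 10.4, 11.4 and 12.03 CPM in KO sham and 8.99, 3.897, 5.21 and 6.77 CPM in WT sham. It was higher in KO sham than in WT sham by 0.85 ± 0.21 (adjusted p = 0.0102), with no overlap. Genes of the Gbp family resemble each other closely, and reads may have been divided between them. Gbp3 was 0.40 ± 0.13 in the same comparison and just missed the threshold (adjusted p = 0.051). Iigp1 had 7.06, 8.42, 6.43 and 25.4 CPM in KO MI, 8.97, 5.91, 7.96 and 6.95 CPM in WT MI, 8.72, 9.63, 6.502 and 10.8 CPM in KO sham and 19.5, 5.07, 4.02 and 5.897 CPM in WT sham. KO MI replicate 4 and WT sham replicate 1 lay far above the other libraries of their groups, which reached at most 8.42 and 5.90 CPM. Igtp followed the same 2 libraries, with 10.1, 10.2, 10.04 and 19.98 CPM in KO MI and 15.3, 10.4, 8.59 and 9.57 CPM in WT sham, and its span overlaps that of Irgm2. Gbp2 had 12.7, 13.5, 15.1 and 25.8 CPM in KO MI and 13.5, 8.42, 9.32 and 10.4 CPM in WT sham. Irgm1, the regulator of the family, ranged from 13.1 to 21.5 CPM in KO MI, from 12.4 to 18.3 CPM in WT MI, from 13.5 to 15.1 CPM in KO sham and from 11.7 to 15.5 CPM in WT sham. None of Iigp1, Igtp, Gbp2 and Irgm1 was called in any of the 5 comparisons.

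**Figure D4:**
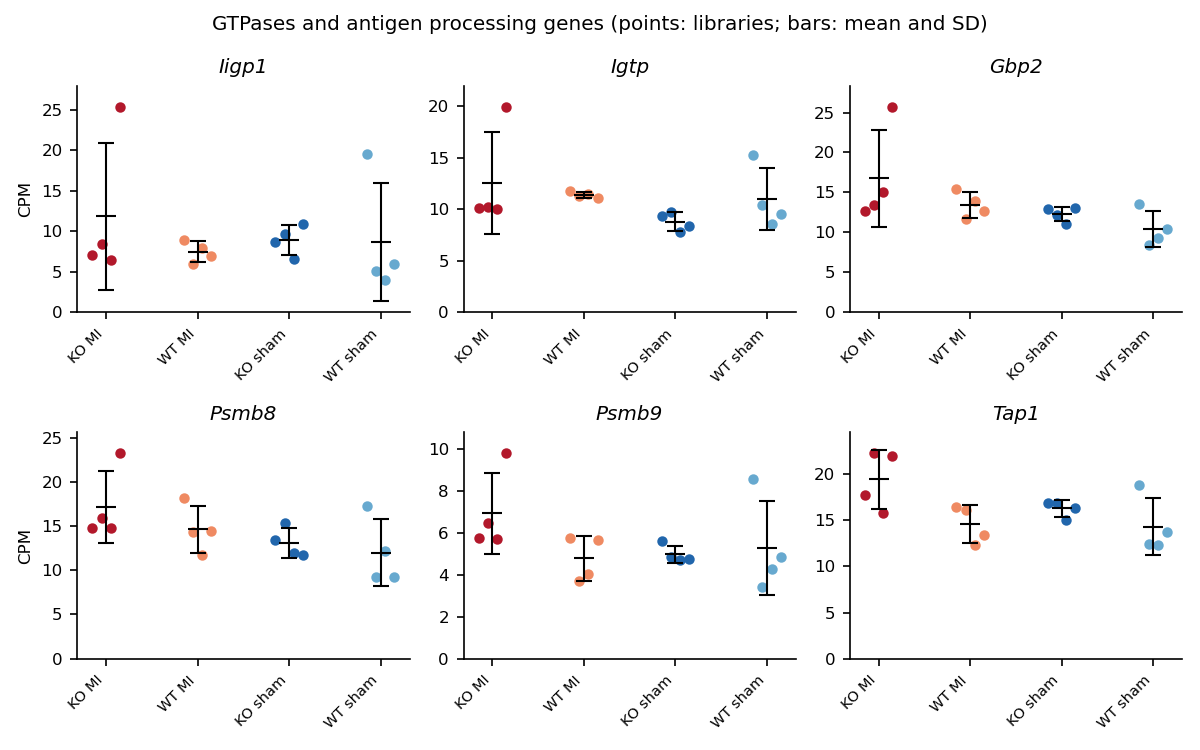
Level in CPM (linear axis from 0) of 3 GTPase genes (upper row) and 3 antigen processing genes (lower row), with 1 point per library, and bars for mean and SD, for KO MI, WT MI, KO sham and WT sham from left to right. For Iigp1 and Igtp, KO MI replicate 4 (25.4 and 20.0 CPM) and WT sham replicate 1 (19.5 and 15.3 CPM) lie well above the rest of their groups.

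Of the antigen processing genes, Psmb8 and Psmb9 were also highest within their groups in KO MI replicate 4 and WT sham replicate 1. Psmb8 and Psmb9 are immunoproteasome subunits, and Tap1 transports peptides to class I molecules. Psmb8 had 14.8, 16, 14.8 and 23.3 CPM in KO MI and 17.3, 9.198, 12.2 and 9.28 CPM in WT sham, and Psmb9 had 5.75, 6.46, 5.71 and 9.82 CPM in KO MI and 8.56, 3.43, 4.29 and 4.83 CPM in WT sham. KO MI replicate 4 was the highest of all 16 libraries for both genes. Tap1 had 17.8, 22.3, 15.8 and 22 CPM in KO MI, 16.5, 16.2, 12.4 and 13.4 CPM in WT MI, 16.9, 16.9, 15.02 and 16.4 CPM in KO sham and 18.9, 12.4, 12.3 and 13.7 CPM in WT sham. No gene of this role was called, and the spans of Psmb9 and Tap1 overlap. Of the remaining members, Ifi35 averaged 19.3 ± 1.53 CPM in KO MI, 20.2 ± 2.88 CPM in WT MI, 16.9 ± 1.53 CPM in KO sham and 17.1 ± 1.102 CPM in WT sham (SD, n = 4 each), and neither it nor Ifi44 nor Xaf1 was called.

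Knockout and wild type after sham surgery differed in the largest number of members. Trim25, Cmpk2, Ifi203, Parp14, Gbp7, Stat2, Dtx3l and Irf1 were higher in KO sham than in WT sham, by 1.34 to 1.85 times, and Isg20, Ifi27l2a and Irf8 were lower, by 1.39 to 2.59 times. These 11 of 47 tested members (23.4%) stand against 15.3% of all genes tested. The 8 higher members were 17.0% of those tested, against 7.6% of all genes tested, and the 3 lower members 6.38%, against 7.74%. The median log2 fold change was 0.29 over the members and -0.0056 over all genes tested, with 37 members positive and 10 negative. All libraries of KO sham were above all of WT sham for 12 members and below for 3, against 14% and 12.3% of all genes tested. Without WT sham replicate 2, the library that was lowest for most members, 8 members were called (5 higher and 3 lower) and the median was 0.22. Without WT sham replicate 1, 15 were called and the median was 0.43. Over all genes, 1383 were called without replicate 2 and 2077 without replicate 1, against 2057 with all libraries. Ifi203, Isg20, Cmpk2, Trim25, Parp14 and Gbp7 were called under all 19 alternatives tried. Markers of several cell types also separated these groups, some higher and some lower in KO sham. Macrophage markers summed to 159 to 170 CPM in KO sham and 127 to 150 CPM in WT sham, with 1 of 10 called higher. The 8 endothelial markers summed to 1759 to 1847 CPM in KO sham and 1508 to 1674 CPM in WT sham, with 2 of 8 higher. The 8 markers of T, B and NK cells summed to 5.77 to 7.72 CPM in KO sham and 2.96 to 4.83 CPM in WT sham, with 1 of the 3 tested higher and Klrb1c at or under 3 counts in every library. Cardiomyocyte markers went the other way, at 66705 to 69361 CPM in KO sham and 74318 to 84762 CPM in WT sham, with 1 of 8 called lower. Erythroid markers summed to 991 to 1407 CPM in KO sham and 2966 to 4731 CPM in WT sham, with all 7 called lower. Leukocyte markers overlapped, at 107 to 119 CPM in KO sham and 99.1 to 127 CPM in WT sham. The shares of all genes tested that were higher or lower are given above. The part of these markers in the member differences was not tested.

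**Figure D5:**
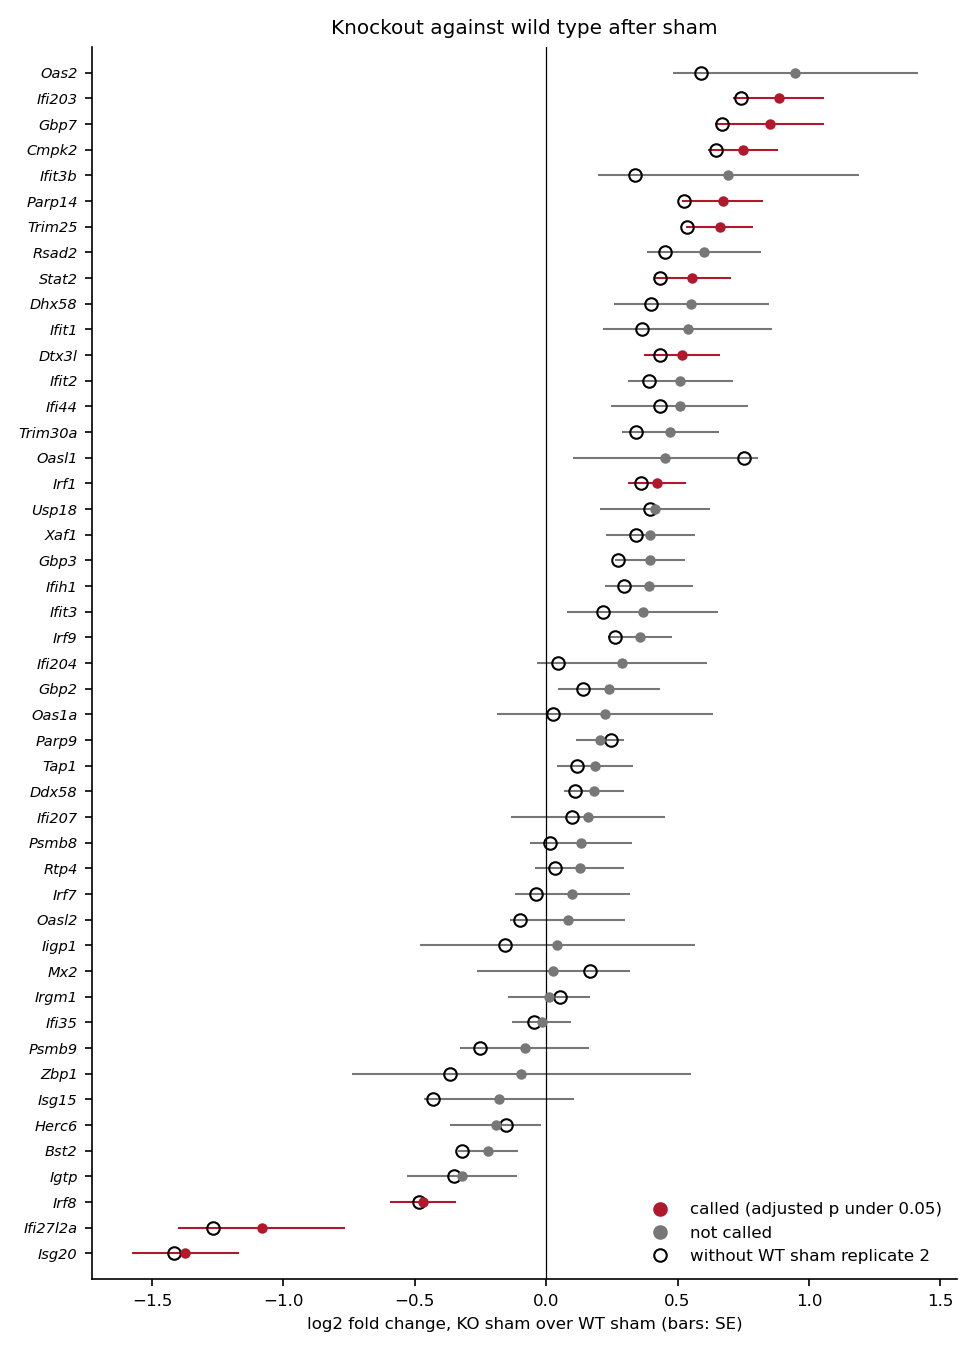
Log2 fold change of KO sham over WT sham for the 47 tested members, ordered by size, with bars for the SE, red where called and grey where not, and open circles for the estimate without WT sham replicate 2. Most points lie right of 0, the largest called values are Isg20 (-1.37) and Ifi27l2a (-1.08) on the left, and the open circles of the higher called members lie nearer to 0 than the filled points.

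Between KO MI and KO sham 8 members differed, 5 higher and 3 lower. Irf8, Ifi27l2a, Isg20, Bst2 and Zbp1 were higher in KO MI than in KO sham, by 1.33 to 2.99 times, and Cmpk2, Trim25 and Rsad2 were lower, by 1.37 to 1.61 times. The 8 of 47 members (17.0%) stand beside 16.6% of all genes tested, so the share called was near the background. The 5 higher members were 10.6%, against 8.54% of all genes tested, and the 3 lower members 6.38%, against 8.02%. Without the 3 libraries with almost no Y-linked reads 6 were called, 6 higher and 0 lower, since Cmpk2 (-0.49, adjusted p = 0.0646), Trim25 (-0.48, adjusted p = 0.0616) and Rsad2 (-0.69, adjusted p = 0.0645) were no longer called in edgeR. Calls over all genes fell to 1291 in that fit, against 2220 with all libraries. With all libraries, the median was 0.088 over the members and 0.0078 over all genes tested, with 27 members positive and 20 negative. KO MI lay wholly above KO sham for 5 members and wholly below for 4, against 11.4% and 12.5% of all genes tested. Leaving out 1 library gave 4 to 10 calls, the fewest without KO MI replicate 2 or KO sham replicate 4 (4 each), with 5 without KO MI replicate 3 or KO sham replicate 2. Calls over all genes also fell in each fit just named with 4 or 5 member calls, from 2220 with all libraries. They were 1230 (KO MI replicate 2 left out), 1305 (KO sham replicate 4), 1443 (KO MI replicate 3) and 1380 (KO sham replicate 2). Without KO MI replicate 4, which was the highest library for 13 members, 6 members were called, 4 higher and 2 lower, and 2931 genes in all. With that correction for GC content and exon length 5 were called, 2 higher and 3 lower. Irf8 and Ifi27l2a were called under all 19 alternatives. Leukocyte markers moved in the same comparison. The 10 pan-leukocyte markers summed to 151 to 232 CPM in KO MI and 107 to 119 CPM in KO sham, with 8 of 10 called higher. The 10 macrophage markers summed to 209 to 337 CPM in KO MI and 159 to 170 CPM in KO sham, with 7 of 10 higher. The 8 neutrophil markers summed to 29.2 to 116 CPM in KO MI and 9.05 to 15.95 CPM in KO sham, with 6 of 8 higher. Every marker of these 3 lists had more than 3 counts in some library, and their part in the member differences was not tested.

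In the wild type, only Ifi203 was called between the surgeries, and it was 1.63 times as high in WT MI as in WT sham. Its call was lost under 8 of 19 alternatives. That 1 of 47 members (2.13%) stands beside 2.25% of all genes tested, of which 1.32% were higher and 0.932% lower. The next smallest p-values belonged to Irf1 (0.38 ± 0.11, adjusted p = 0.0854), Usp18 (0.67 ± 0.21, adjusted p = 0.0986), Oas2 (1.46 ± 0.45, adjusted p = 0.104) and Parp14 (0.50 ± 0.16, adjusted p = 0.106), none of them called. Irf1, Usp18, Oas2 and Stat2 were higher in every WT MI library than in every WT sham library, 4 members against 4.5% of all genes tested. None was lower without overlap, against 3.71% of all genes tested. The median was 0.29 over the members and -0.011 over all genes tested, with 40 members positive and 7 negative. Without WT sham replicate 2 no member was called and the median was 0.18. No member was called without WT MI replicate 1 or 4 either, and 2 were without WT MI replicate 2. Over all genes, 211 were called without WT sham replicate 2, against 302 with all libraries. Without WT MI replicate 1, 2 and 4 the counts over all genes were 86, 272 and 203. The markers of leukocytes summed to 126 to 185 CPM in WT MI and 99.1 to 127 CPM in WT sham. Those of macrophages summed to 167 to 248 CPM and 127 to 150 CPM, and those of neutrophils to 15.0 to 104 CPM and 9.43 to 14.2 CPM, in the same groups. In these lists 3 of 10, 4 of 10 and 0 of 8 were called higher. Erythroid markers summed to 1711 to 2116 CPM in WT MI and 2966 to 4731 CPM in WT sham, with 5 of 7 called lower. The part of these markers in the member differences was not tested.

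Knockout and wild type after infarction differed in none of the members by this test. No member was called by edgeR or by DESeq2, 2 had an unadjusted p under 0.05 in edgeR, and 0.0149% of all genes tested were called, 0.00746% in each direction. The smallest p-values belonged to Tap1 (0.41 ± 0.14, adjusted p = 0.873), Psmb9 (0.54 ± 0.24, adjusted p = 0.976), Trim25 (0.25 ± 0.13, adjusted p = 0.976), Gbp2 (0.32 ± 0.19, adjusted p = 0.976) and Dtx3l (0.20 ± 0.14, adjusted p = 0.976). All 47 tested members overlapped between KO MI and WT MI, whereas 1.09% of all genes tested were higher and 1.02% lower without overlap. The 11 members called between the genotypes after sham had estimates after infarction that ran from -0.19 ± 0.20 for Isg20 to 0.28 ± 0.29 for Ifi27l2a. Between these lay Ifi203 at -0.17 ± 0.17, Parp14 at -0.14 ± 0.15, Irf8 at 0.01 ± 0.12, Stat2 at 0.01 ± 0.15, Irf1 at 0.03 ± 0.11, Cmpk2 at 0.10 ± 0.13 and Gbp7 at 0.16 ± 0.20, with Trim25 and Dtx3l as given above. For Ifi27l2a, Ifi203, Parp14 and Irf8 the sign was the opposite of that after sham. The median was 0.033 over the members and 0.0046 over all genes tested.

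The interaction compares the response to infarction, in the knockout minus in the wild type, and equally the knockout difference after infarction minus that after sham. Ifi203 (-1.05 ± 0.24, adjusted p = 0.0225) and Parp14 (-0.81 ± 0.21, adjusted p = 0.0447) were lower and Isg20 (1.18 ± 0.28, adjusted p = 0.0273) was higher, 3 of 47 members (6.38%) against 2.74% of all genes tested. Of all genes, 1.65% were higher and 1.1% lower. For Ifi203 the responses were -0.35 ± 0.16 in the knockout and 0.70 ± 0.17 in the wild type, for Parp14 -0.31 ± 0.15 and 0.50 ± 0.16, and for Isg20 0.80 ± 0.21 and -0.39 ± 0.19. Of these 6 responses, only those of Ifi203 in the wild type and Isg20 in the knockout were called. Cmpk2 (-0.64 ± 0.19, adjusted p = 0.0704) and Ifi27l2a (1.36 ± 0.43, adjusted p = 0.0978) came next and were not called. Of the 7 erythroid markers 5 were called higher in the interaction, and their part in the Isg20 value was not tested. Over the members 33 estimates were negative and 14 positive, with a median of -0.21. Over all genes tested the median was 0.0025, and 50.4% of the estimates were positive. These calls were sensitive to single libraries. Of 26 alternatives, 14 ended the call of Parp14, and 7 each ended those of Ifi203 and Isg20. Without WT sham replicate 2 the interaction of Parp14 was -0.67 (adjusted p = 0.0773 in edgeR) and 2 members were called. In that fit 292 of all genes were called, against 368 with all libraries. From 0 to 5 members were called as each library was left out, with none without KO sham replicate 2, KO sham replicate 4 or WT sham replicate 3, and 5 without WT MI replicate 2. Over all genes the calls in those fits were 194, 193, 205 and 817, against 368 with all libraries. A single member was called without KO MI replicate 3, KO sham replicate 1 or 3, or WT MI replicate 1, 3 or 4. The calls over all genes were lower there too, at 262, 178, 218, 231, 234 and 213 in that order.

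The upstream genes of the pathway were read from separate lists. The 20 interferon genes had 10 reads in all over the 16 libraries, with at most 2 in any library, and 16 of them had no read. Ifng had 5 reads, Ifnb1 and Ifna15 had 2 each and Ifnab had 1, all at or under the floor of 3 counts per library. The receptor genes were well expressed. Ifnar1 averaged 32.9 ± 1.88 CPM in KO MI, 30.1 ± 1.67 CPM in WT MI, 35.8 ± 1.36 CPM in KO sham and 29.6 ± 1.52 CPM in WT sham (SD, n = 4 each). It was higher in KO sham than in WT sham by 0.28 ± 0.08 (adjusted p = 0.0217), as was Ifnar2 by 0.32 ± 0.10 (adjusted p = 0.0372), 2 of 6 receptor genes tested. Of all genes tested, 7.6% were higher in that comparison. No receptor gene was called in the other comparisons. Stat3, a transducer of cytokine signals, fell by 0.30 ± 0.08 in KO MI relative to KO sham (adjusted p = 0.0207). Jak1, Jak2 and Tyk2 were not called.

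The sensing and adaptor genes outside the members, 17 of them tested, held 1 call between KO MI and KO sham, 1 between WT MI and WT sham, 2 between KO sham and WT sham, 0 between KO MI and WT MI and 1 in the interaction. The shares of all genes called are those given above for each comparison, here and for the feedback inhibitors below. Ikbke, a kinase that activates interferon regulatory factors, was higher in KO MI than in KO sham by 0.77 ± 0.21 (adjusted p = 0.0184). Mavs, the mitochondrial adaptor of the RNA sensors, was higher in WT MI than in WT sham by 0.38 ± 0.09 (adjusted p = 0.0225) and had a negative interaction (-0.49 ± 0.12, adjusted p = 0.0302). In KO sham relative to WT sham, Tlr7, the endosomal receptor for single-stranded RNA, was higher by 1.20 ± 0.35 (adjusted p = 0.0278), and the adaptor gene Ticam1 fell by 0.43 ± 0.14 (adjusted p = 0.0404). Of 9 feedback inhibitors, Irf2bp2 fell by 0.88 ± 0.20 in KO sham relative to WT sham (adjusted p = 0.00702) and Ptpn11 was higher by 0.43 ± 0.13 (adjusted p = 0.0251), and Trim24 fell by 0.32 ± 0.09 in KO MI relative to KO sham (adjusted p = 0.0254). Socs1, the inducible inhibitor of the receptor kinases, averaged 1.86 ± 0.52 CPM in KO MI, 2.07 ± 0.461 CPM in WT MI, 2.16 ± 0.615 CPM in KO sham and 1.78 ± 0.847 CPM in WT sham (SD, n = 4 each) and was not called.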

How the data were processed

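Polyadenylated RNA from full ventricles was sequenced in 16 libraries, grouped by the genotype and surgery in the labels. The authors deposited unnormalised HTSeq counts of reads per Ensembl gene. The submitters' processing notes name the build GRCm39, the aligner HISAT2 2.2.1, the counter HTSeq 0.13.5, the trimmer cutadapt 3.4 and also bcl2fastq 2.17, DESeq2 and FastQC. The strand setting and annotation release are not given in the sources used here. Differences were tested with edgeR 4.0.16 under R 4.3.3. Libraries were scaled by TMM, genes were filtered with filterByExpr (13412 kept), and a robust quasi-likelihood model with a mean per group was fitted to all 16 libraries, with 12 residual degrees of freedom. Tests were two-sided, with Benjamini-Hochberg adjustment over all genes tested and calls at 0.05. SEs are those implied by the F statistic. CPM uses TMM-scaled totals, and 5 summary lines of reads in no gene were left out.

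The members and the other lists were chosen with earlier results of these data known. In each comparison the text names the called members or, where fewer than 5 were called, those with the smallest p, and Ifit3, Isg15, Oasl2, Irf7, Irf1, Irf8, Stat2, Bst2, Gbp2, Irgm1, Psmb8 and Tap1 as examples of their roles. Other members named as values were chosen after their values were seen. A gene of the signalling list is not reported here. The alternatives were DESeq2 1.42.0, other scalings and filters, a block for the replicate number, the compared libraries alone, a correction for GC content and exon length, and leaving out libraries. The floor of 3 counts covers counting error only.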

Additional observations from a re-analysis of the deposited data

Results flagged for a closer look

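Of 188 sets of 4 libraries (47 tested members in 4 groups), 15 held a library whose gap to the nearest other exceeded the 95% critical value of Dixon's test, which chance gives in about 1 in 20 sets. In KO MI, replicate 4 stood above the rest for Iigp1 (25.4 CPM), Psmb8 (23.3 CPM), Igtp (20.0 CPM) and Ifih1 (11.8 CPM), and replicate 2 for Oasl2 (13.3 CPM). In WT MI, replicate 2 stood below the rest for Parp14 (14.8 CPM) and Dtx3l (6.81 CPM) and above it for Irf9 (20.2 CPM), and replicate 4 stood above it for Ifit2 (16.5 CPM). In KO sham, replicate 4 stood below the rest for Stat2 (16.8 CPM) and above it for Usp18 (4.01 CPM), and replicate 1 stood above it for Psmb9 (5.60 CPM). In WT sham, replicate 1 stood above the rest for Iigp1 (19.5 CPM) and Ifi44 (2.08 CPM), and replicate 3 for Dhx58 (2.74 CPM).

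The response to infarction differed between the genotypes, by the interaction term of the edgeR model, for Ifi203 (-1.05), Isg20 (1.18) and Parp14 (-0.81). The call was lost in 6 of 16 fits that left out 1 library for Ifi203, in 6 of 16 for Isg20 and in 12 of 16 for Parp14.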

How the results depend on the processing

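No difference of a called member changed direction under any alternative. Corrected for GC content and exon length, 5 members were called between KO MI and KO sham. That fit called 2230 of all genes, against 2220 in the main fit. Between WT MI and WT sham, DESeq2 called 3 members, and none was called in the fit of the compared libraries alone, without the 3 libraries with almost no Y-linked reads, or without both WT sham replicate 2 and KO MI replicate 4 (0 in each). That last alternative was chosen after seeing the data. Over all genes these edgeR fits called 185, 166 and 509 and DESeq2 called 511, against 302 in the main fit. For the interaction, DESeq2 called 5 members and the fit without the 3 libraries with almost no Y-linked reads called 1. Of all genes, DESeq2 called 628 and the fit without those libraries 217, against 368 in the main fit. Leaving out each library in turn gave 4 to 10 calls between KO MI and KO sham, 0 to 2 between WT MI and WT sham, 8 to 15 between KO sham and WT sham, 0 between KO MI and WT MI and 0 to 5 for the interaction. Calls over all genes moved as well, as given above for several of these fits. The causes were not tested. With the replicate number as a block, 7 members were called between KO MI and KO sham, 1 between WT MI and WT sham, 13 between KO sham and WT sham, 0 between KO MI and WT MI and 3 for the interaction. Over all genes the block fit called 2413, 297, 2202, 3 and 350, in the same order. The main fit called 2220, 302, 2057, 2 and 368. Most libraries with the same number did not pair, since the correlation of their deviations was over 0.1 in 4 of 24 pairs and 5 of 16 libraries matched their own number best. The correlations ran from -0.097 to 0.48. The highest was between 2 libraries with the number 2, for which 2 of 6 pairs were over 0.1. Zbp1, with 3 to 49 reads per library, and the 3 members not tested are limited by depth.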

Other observations

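A further 70 interferon-induced genes that are not members were read in the same fit, 63 of them tested. Between KO MI and KO sham 6 were higher and 2 lower, where 8.54% of all genes tested were higher and 8.02% lower. The higher genes included class I antigen presentation genes, with B2m, the light chain of class I molecules, at 154 ± 42.9 CPM in KO MI and 96.2 ± 4.63 CPM in KO sham (SD, n = 4 each; 0.68 ± 0.17, adjusted p = 0.0118). The heavy chain genes H2-K1 (0.77 ± 0.25, adjusted p = 0.046) and H2-D1 (0.59 ± 0.14, adjusted p = 0.0101) and the immunoproteasome subunit Psmb10 (0.42 ± 0.10, adjusted p = 0.00699) were also higher. Slfn5 fell by 0.59 ± 0.18 (adjusted p = 0.0344) and Cd274, the gene of PD-L1, fell by 1.30 ± 0.34 (adjusted p = 0.0149) in KO MI relative to KO sham.

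Between KO sham and WT sham 9 of the 63 were higher and 2 lower, where 7.6% of all genes tested were higher and 7.74% lower. Slfn5, of the Schlafen family, averaged 86.2 ± 3.47 CPM in KO sham and 42.3 ± 6.85 CPM in WT sham (SD, n = 4 each), a difference of 1.03 ± 0.19 (adjusted p = 0.00166). Sp100, a nuclear body gene, averaged 28.9 ± 0.68 CPM in KO sham and 17.0 ± 1.23 CPM in WT sham (SD, n = 4 each; 0.77 ± 0.12, adjusted p = 0.000285). Ube2l6, the conjugating enzyme for Isg15, went the other way, at 10.5 ± 1.24 CPM in KO sham and 18.9 ± 2.30 CPM in WT sham (SD, n = 4 each), and fell by 0.85 ± 0.12 (adjusted p = 0.000164). Between WT MI and WT sham 5 were higher, among them Samd9l (0.70 ± 0.12, adjusted p = 0.00359) and Ly6a (0.63 ± 0.14, adjusted p = 0.0175), and none lower, where 1.32% of all genes tested were higher and 0.932% lower. None was called between KO MI and WT MI. Cxcl10, a chemokine induced by interferon gamma, averaged 1.57 ± 0.73 CPM in KO MI, 1.02 ± 0.66 CPM in WT MI, 1.08 ± 0.34 CPM in KO sham and 0.97 ± 0.28 CPM in WT sham (SD, n = 4 each) and was not called in any comparison.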
